A study of Mus musculus with 12 samples.

Results

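Myc and the Max network were followed through 12 samples of T-ALL (T-cell acute lymphoblastic leukaemia) from mice. The 9 members were taken by gene symbol, Myc, Mycn, Max, Mxd1, Mxd3, Mxd4, Mxi1, Mnt and Mlx, and each had 1 row among the 23174 genes of either table. All samples were of the C57BL/6 strain and carried Notch1-deltaE, an activated form of the Notch1 receptor. The first table held 3 samples treated ex vivo with AMD3100, an antagonist of the chemokine receptor Cxcr4, and 3 treated with vehicle. The second held 3 primary tumours of genotype Cxcr4-/- (KO 5, 7 and 8) and 3 of genotype Cxcr4+/+ (WT 1, 2 and 4). By the labels the leukaemia cells came from spleen and were kept with 5 ng/ml IL-7 on OP9, a mouse bone marrow stromal line whose division was blocked with mitomycin C. That culture is given for the primary tumours too, so whether they were cultured before RNA extraction is uncertain. No source used here gives the dose or duration of AMD3100. The labels do not say whether replicates are separate mice or separate cultures. The p-values therefore weigh a group difference only against the spread of these samples, and that spread may be technical.

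Myc is a transcription factor of the basic helix-loop-helix leucine zipper family that binds DNA only as a dimer with Max. Mxd1, Mxd3, Mxd4, Mxi1 and Mnt compete with Myc for Max and recruit corepressors to the same sites. Mlx is a relative of Max that pairs with Mnt, with some Mxd proteins and with the glucose-responsive factors Mlxip and Mlxipl. In Notch1-driven T-ALL, Myc is a well-known direct target of Notch1 and a main driver of growth.

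The sequence these dimers share is the canonical E-box, CACGTG, which is its own reverse complement. Promoter windows of RefSeq on build GRCm38.p6, running from 250 bases before to 50 bases after each start site, were matched by symbol to 8 members, Mxi1 with 3 windows, and Myc was not among them. The windows of 4 members held 1 canonical E-box each, those of Mxd4, Mnt, Mlx and Max. They are shown because the network's own genes can carry the site that its dimers bind, with the E-box in capitals and 15 bases on either side, 5′ to 3′ on the strand of the gene.
Mxd4: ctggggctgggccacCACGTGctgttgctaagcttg
Mnt: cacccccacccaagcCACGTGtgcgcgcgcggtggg
Mlx: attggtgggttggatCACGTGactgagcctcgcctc
Max: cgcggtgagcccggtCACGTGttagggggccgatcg
The Mxd4 window lay at chr5:34187909-34187944 on the minus strand, and its E-box began 219 bases before the start site. The Mnt window lay at chr11:74830786-74830821 on the plus strand, with the E-box 123 bases before the start. The Mlx window lay at chr11:101087235-101087270 on the plus strand, with the E-box 40 bases before the start. In Max, at chr12:76962231-76962266 on the minus strand, the E-box began 3 bases before the start site and so ran across it. Of the 27025 genes with a window, 8.09% held CACGTG. A match of letters is a description and says nothing of binding in these cells.

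Levels are in FPKM, which scales fragments to transcript length and to the mapped fragments of a library, and they are set beside each other between genes within a table as listed. The tables were normalised separately, and levels across them are given side by side without a test. In the ex vivo samples all 7 T cell markers were listed above 0, and the summed markers of erythroid cells and of neutrophils reached at most 1.12 FPKM. The tumours were mixed: all 7 T cell markers were present, with sums between 1048 and 3744 FPKM, and haemoglobin genes took 2.76% to 20.4% of all FPKM in KO tumours and 1.29% to 23.0% in WT tumours. KO 5 and WT 4 held the most haemoglobin. In WT 2 the 7 neutrophil markers summed to 3106 FPKM, against 5.64 to 319 FPKM in the other tumours. Macrophage markers summed to 31.0 to 89.5 FPKM in KO tumours and 12.3 to 84.6 FPKM in WT tumours, and B cell markers to 12.4 to 21.8 FPKM and 2.38 to 12.2 FPKM. Cxcr4 itself stood at 23.2, 78.9 and 21.9 FPKM in KO 5, 7 and 8, against 241, 155 and 206 FPKM in WT 1, 2 and 4, so the genotype groups did not overlap. Gapdh and Ppia, which every cell uses, were listed at 0 in 8 and 7 of the 12 libraries and at no more than 0.532 and 1.67 FPKM in the rest. A gene listed at or near 0 in these tables is therefore not shown to be unexpressed. Comparisons between genes, as in the order of members and the ratios to Myc, describe the listed values only. Whole-read counts and depths are not in the tables. From the step size of low values, the AMD3100 libraries had 1.06, 1.25 and 1.21 times the depth of vehicle 1, and vehicle 2 and 3 had 0.908 and 0.758 times.

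No member was called between AMD3100 and vehicle once all genes were adjusted for. Myc averaged 166 ± 46.3 FPKM in AMD3100 samples and 210.2 ± 6.62 FPKM in vehicle samples (SD, n = 3 each), and Mnt, 10.5 ± 0.679 against 8.49 ± 0.541 FPKM, was the 1 member whose groups did not overlap. Among all genes tested, 13.1% did not overlap with AMD3100 higher and 15.8% with AMD3100 lower, so that count does not set the members apart. Of the 9 members 8 were tested, and limma called 0 of them at an adjusted p under 0.05, with the samples unpaired or paired by number. The background was 13 calls among 10245 genes, 0.127%, unpaired (0.0488% higher and 0.0781% lower), and 2036 calls, 19.9%, with the replicate number as a block. At an unadjusted p under 0.05, 1 member, Mnt, passed in either fit, where 21.5% of all genes passed unpaired and 39% paired.

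**Figure D1:**
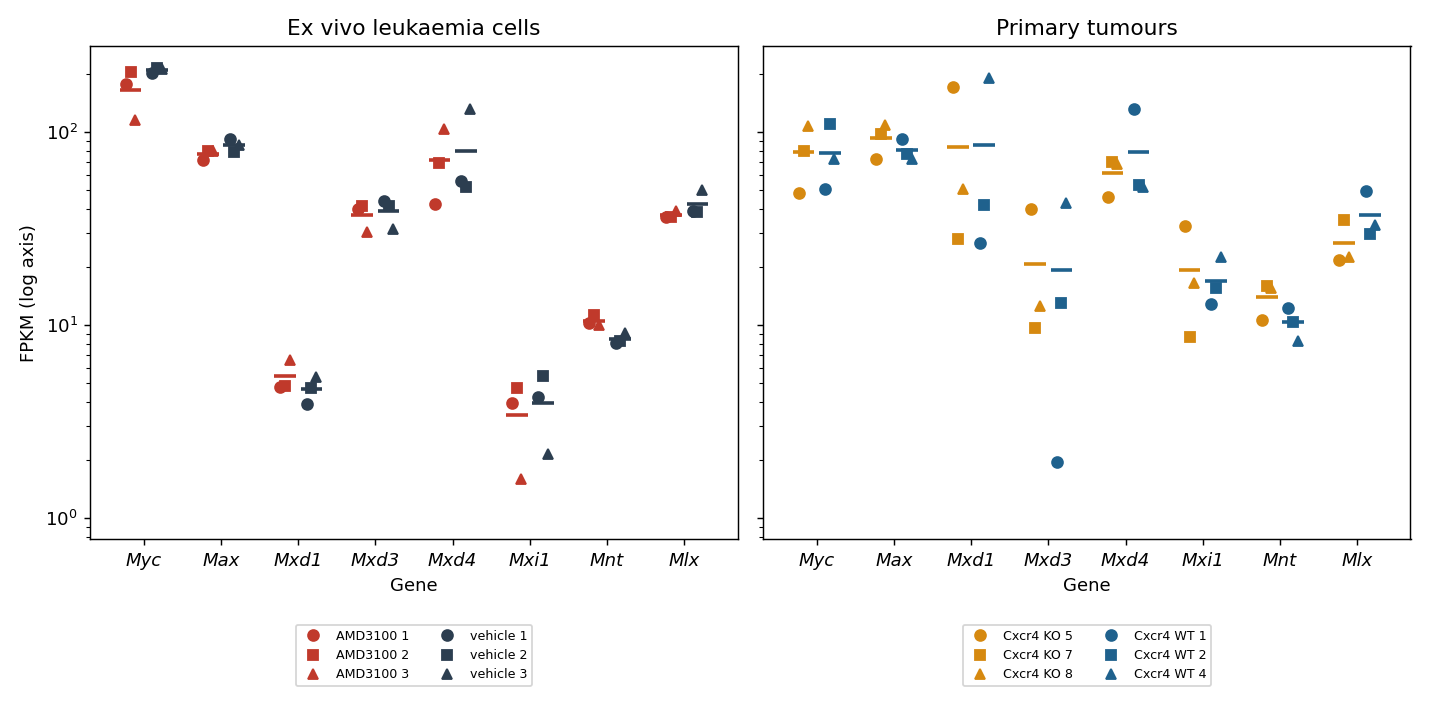
FPKM on a log axis of the 8 tested members in each sample, with AMD3100 (red) and vehicle (dark) samples on the left and Cxcr4 KO (orange) and Cxcr4 WT (blue) tumours on the right; symbols mark the samples and short lines the group means. Myc stands above all other members ex vivo, at 116 to 206 FPKM in AMD3100 samples and 203 to 214 FPKM in vehicle samples, while Mxd1 and Mxd3 spread widely across the tumours.

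Myc was the highest member ex vivo. It was listed at 177, 206 and 116 FPKM in AMD3100 samples 1, 2 and 3, and at 203, 214 and 213 FPKM in vehicle samples 1, 2 and 3. Each AMD3100 sample lay below the vehicle sample of its number, by less in the first and second pairs than in the third, but AMD3100 2 lay above vehicle 1, so the groups overlapped. The log2 change of FPKM + 1 was -0.38 (SE 0.214, 95% interval -0.90 to 0.15, limma adjusted p = 0.382), and pairing gave an SE of 0.171 and a limma adjusted p of 0.172. Without AMD3100 3 the change was -0.14 on the log2 scale, and over all alternatives run it lay between -0.55 and -0.12, the smallest without the third pair. Mycn, the Myc relative of neural and early haematopoietic progenitors, was listed at no more than 0.0931 FPKM in AMD3100 samples and 0.385 FPKM in vehicle samples, and did not pass the filter of a mean of 1 FPKM.

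Max, the obligate partner, was among the steadiest genes. Its level was 72.1, 79.6 and 79.6 FPKM in AMD3100 samples, against 92.2, 78.6 and 85.7 FPKM in vehicle samples. Vehicle 2 lay inside the AMD3100 range and the other vehicle samples above it. Over the 6 ex vivo samples the SD of its log2 level stood at percentile 10.0 among all genes tested, and the log2 change was -0.15 (95% interval -0.37 to 0.08, limma adjusted p = 0.427).

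Of the antagonists, Mnt came nearest to a call. Mnt, the broadly expressed repressor of the family, had 10.2, 11.3 and 10.0 FPKM in AMD3100 samples, against 8.10, 8.26 and 9.11 FPKM in vehicle samples. Every AMD3100 sample lay above every vehicle sample, which was true of 13.1% of all genes tested in that direction and 15.8% in the other. The log2 difference of Mnt was 0.28 (SE 0.109, 95% interval 0.01 to 0.55, limma adjusted p = 0.217 unpaired and 0.110 paired), and over all alternatives it lay between 0.21 and 0.36, with 0.0969 as the lowest adjusted p. Mxd1, the member classically induced as cells differentiate, was low ex vivo, at 4.79, 4.85 and 6.64 FPKM in AMD3100 samples against 3.90, 4.75 and 5.40 FPKM in vehicle samples. Mxd3, which has been tied to proliferating cells, had 40.2, 41.6 and 30.6 FPKM against 44.1, 41.5 and 31.6 FPKM. In both genes the groups overlapped, and the log2 differences were 0.17 (limma adjusted p = 0.674) for Mxd1 and -0.06 (limma adjusted p = 0.921) for Mxd3.

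In Mxd4 and Mxi1 the replicate number separated the ex vivo samples more than the treatment did. Mxd4 had 42.5, 69.7 and 104 FPKM in AMD3100 samples 1, 2 and 3, against 55.8, 51.7 and 131 FPKM in vehicle samples 1, 2 and 3. Mxi1 had 3.96, 4.75 and 1.59 FPKM, against 4.23, 5.46 and 2.15 FPKM. Sample 3 of both groups was the highest in Mxd4 and the lowest in Mxi1. The same samples stood apart in Pdgfrb, a gene of the stromal list, at 144, 186 and 11.2 FPKM in AMD3100 samples and 136, 160.0 and 4.20 FPKM in vehicle samples. The 9 stromal markers together summed to 168, 199 and 21.2 FPKM, against 152, 183 and 10.7 FPKM. Most of that sum in samples 1 and 2 was Pdgfrb itself, so it is no separate sign. Cxcl12 had 15.9, 8.58 and 7.93 FPKM, against 10.4, 12.7 and 3.84 FPKM. Every other marker of the list stood at 3.81 FPKM or less, and Lum and Dcn at 0 in all ex vivo samples. The part of stromal cells in these differences was not tested. The log2 changes were -0.10 for Mxd4 (95% interval -1.24 to 1.04 unpaired, -0.55 to 0.35 paired) and -0.18 for Mxi1 (-1.18 to 0.83 unpaired, -0.49 to 0.15 paired). Limma's adjusted p was 0.951 unpaired and 0.703 paired for Mxd4, and 0.883 and 0.348 for Mxi1.

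Mlx, the partner of the glucose-responsive branch, had 36.5, 36.4 and 39.2 FPKM in AMD3100 samples, against 38.9, 38.4 and 50.1 FPKM in vehicle samples. Vehicle 3 stood above the rest and the other samples lay close together, with a log2 change of -0.17 (limma adjusted p = 0.503 unpaired, 0.199 paired). Mlxip, which dimerises with Mlx, was listed at 16.3, 20.7 and 19.8 FPKM in AMD3100 samples, against 14.5, 14.2 and 15.7 FPKM in vehicle samples. Its groups did not overlap, as in 13.1% of all genes tested in that direction (15.8% in the other). The log2 difference of 0.33 had a limma adjusted p of 0.186 unpaired and 0.0750 paired. Mga, a large Max-binding repressor, averaged 16.8 ± 1.57 FPKM in AMD3100 samples and 14.2 ± 1.83 FPKM in vehicle samples (SD, n = 3 each; limma adjusted p = 0.381 unpaired, 0.122 paired). Mlxipl and Mycl1 were listed under 1 FPKM in all 12 samples.

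**Figure D2:**
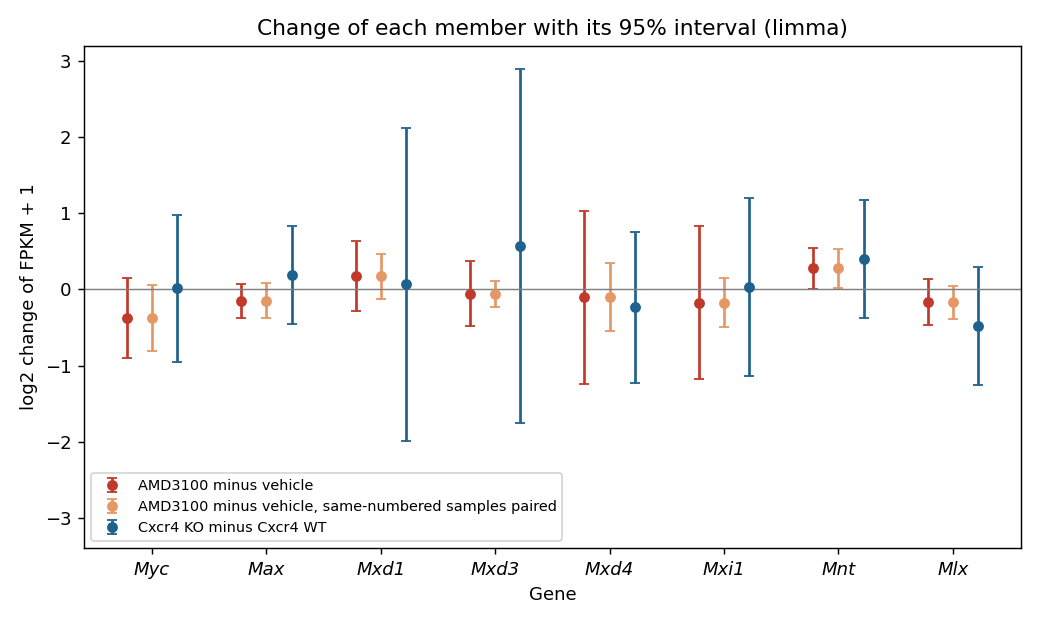
Log2 change of FPKM + 1 of the 8 tested members with its 95% interval from limma, for AMD3100 minus vehicle unpaired (red) and paired by number (light orange) and for Cxcr4 KO minus Cxcr4 WT tumours (blue). The unpaired ex vivo intervals are narrowest for Max and Mnt, and those of Mxd1 and Mxd3 in the tumours run from -1.99 to 2.13 and from -1.76 to 2.89.

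No member was called between Cxcr4 KO and Cxcr4 WT tumours, and the intervals were wide. Myc averaged 78.6 ± 29.5 FPKM in KO tumours and 77.8 ± 30.0 FPKM in WT tumours, and Max 93.3 ± 18.9 against 80.7 ± 9.99 FPKM (SD, n = 3 each). Limma called 0 of 8 tested members, beside a background of 4 calls among 10741 genes (0.0372%; 0.0186% higher and 0.0186% lower), and 0 members passed an unadjusted p under 0.05, beside 4.28% of all genes. In all 8 members the genotype groups overlapped. Among all genes tested, 4.01% did not overlap with KO higher and 5.2% with KO lower, so this does not set the members apart.

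Myc was listed at 48.5, 80.0 and 107 FPKM in KO 5, 7 and 8, against 50.6, 109.9 and 72.7 FPKM in WT 1, 2 and 4. Each genotype held a tumour near the lowest value and one near the highest, so each genotype spread nearly as widely as the 6 tumours together. The log2 change was 0.01 with a 95% interval from -0.95 to 0.98 (limma adjusted p = 1.00), which leaves room for a change of nearly 1 log2 unit either way. With each library scaled to its T cell markers the change was -0.36, where the median of all genes was -0.37. Mycn was listed at 2.83 FPKM in KO 8 and at 0 in KO 5 and KO 7, and at no more than 0.0984 FPKM in WT tumours. KO 8 was the library with the most genes at 0, 13231, against 10423 to 11433 in the others. Max had 72.5, 98.0 and 109 FPKM in KO tumours, against 91.8, 77.6 and 72.5 FPKM in WT tumours, and its SD of log2 level across the 6 tumours stood at percentile 8.57 among all genes tested.

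Mxd1 and Mxd3 were the most variable members across the tumours. Mxd1 had 172, 28.0 and 51.1 FPKM in KO 5, 7 and 8, against 26.6, 41.8 and 191 FPKM in WT 1, 2 and 4. Mxd3 had 40.0, 9.63 and 12.6 FPKM, against 1.94, 13.0 and 43.1 FPKM. In both genes KO 5 and WT 4 stood well above the other tumours, and the highest tumour exceeded the lowest 7.18-fold for Mxd1 and 22.2-fold for Mxd3. The SDs of their log2 levels stood at percentiles 90.1 and 93.8 among all genes tested. The log2 change between genotypes was 0.07 for Mxd1 (limma adjusted p = 0.998) and 0.57 for Mxd3 (limma adjusted p = 0.994). With KO 5 and WT 4 left out, a choice made after seeing the data, it was 0.18 for Mxd1 and 0.91 for Mxd3, and neither was called.

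The order of the tumours in these genes went with their cell makeup. The 6 erythroid markers that have a row summed to 67485, 6379 and 13420.3 FPKM in KO 5, 7 and 8, against 2543, 14088 and 80134 FPKM in WT 1, 2 and 4, and the same 2 tumours were highest in these markers and in Mxd1. The 8 proliferation genes summed to 2042, 357 and 628 FPKM in KO tumours, against 324, 1342 and 2301 FPKM in WT tumours, and Mxd3, the erythroid sum and the proliferation sum all ranked the 6 tumours in the same order. The 2 sums therefore cannot be told apart here. In bulk RNA, fewer cells of a type and less RNA per cell cannot be told apart either. The part of other cells in the members' levels was not tested.

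**Figure D3:**
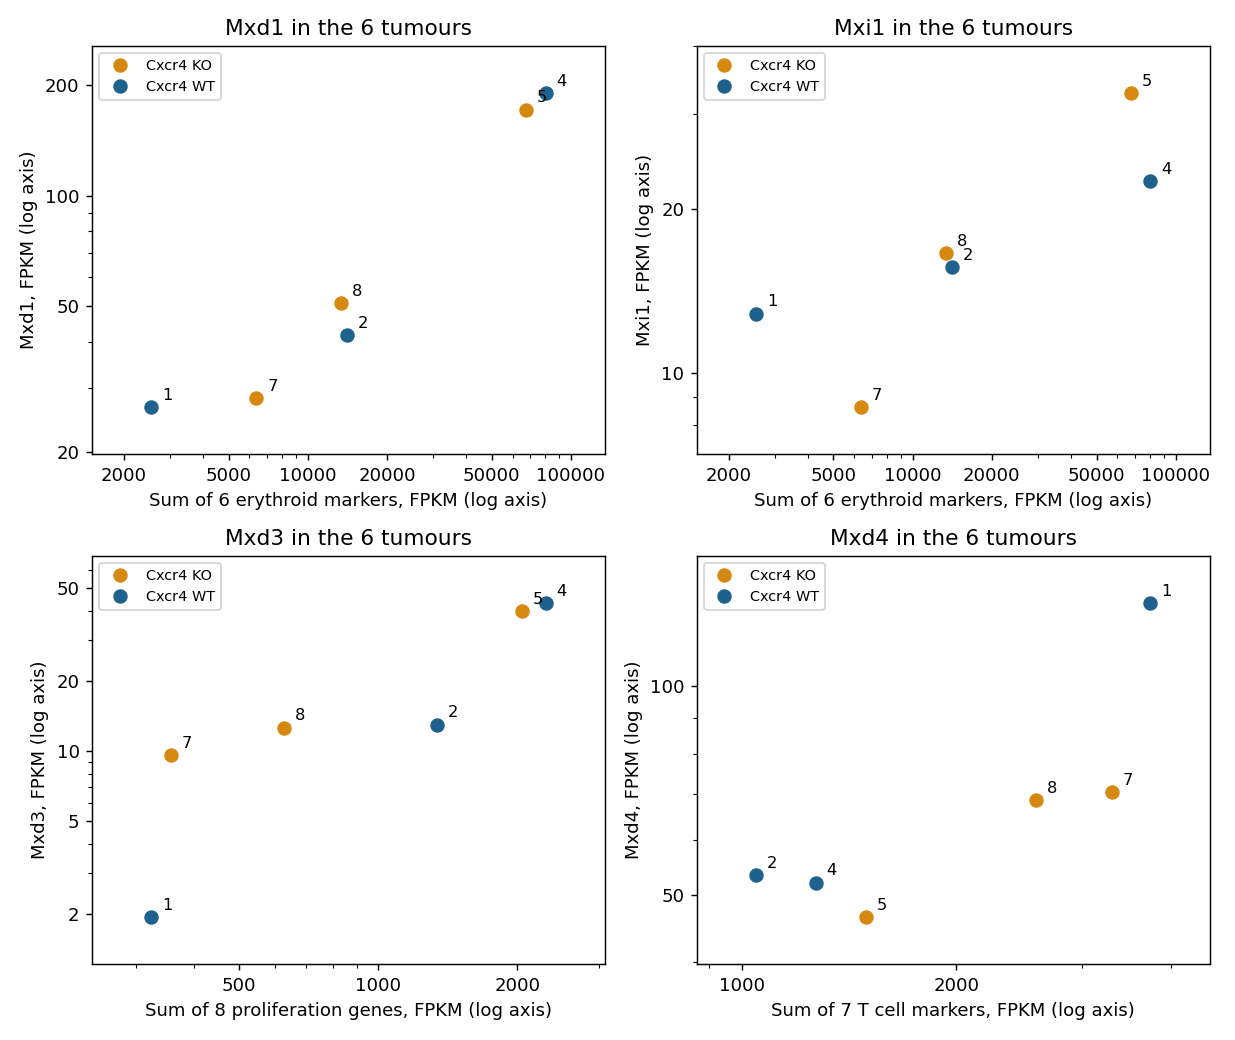
Level of Mxd1, Mxi1, Mxd3 and Mxd4 in the 6 tumours (FPKM, log axes) against the summed markers of erythroid cells, of proliferation or of T cells; orange points are Cxcr4 KO and blue points Cxcr4 WT, numbered by sample. KO 5 and WT 4 lie at the upper right for Mxd1, Mxi1 and Mxd3, and WT 1, KO 7 and KO 8, the 3 tumours with the highest T cell markers, are the 3 highest in Mxd4. The same tumours are the 3 lowest in the erythroid and proliferation sums.

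Mxi1 had 32.8, 8.64 and 16.6 FPKM in KO 5, 7 and 8, against 12.8, 15.7 and 22.5 FPKM in WT 1, 2 and 4. The erythroid-rich tumours were the highest of each genotype, and the groups overlapped with a log2 change of 0.03 (limma adjusted p = 1.00). Mxd4, found in resting and differentiating cells, had 46.5, 70.5 and 68.5 FPKM, against 132, 53.4 and 52.1 FPKM. WT 1, KO 7 and KO 8 were the highest, and the same 3 tumours had the highest T cell marker sums, 3744, 3303 and 2587 FPKM, where the other 3 reached 1048 to 1492 FPKM. These tumours were also the 3 lowest in the erythroid and in the proliferation sums, so the sums cannot be told apart for Mxd4. The log2 change of Mxd4 was -0.23 (limma adjusted p = 0.994). Without WT 1 it was 0.20, and the direction rests on that tumour.

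Mnt had 10.7, 15.9 and 15.5 FPKM in KO 5, 7 and 8, against 12.3, 10.4 and 8.33 FPKM in WT 1, 2 and 4. KO 7 and KO 8 lay above all WT tumours and KO 5 among them, with a log2 difference of 0.40 (95% interval -0.37 to 1.17, limma adjusted p = 0.986). Mlx had 21.8, 35.1 and 22.7 FPKM, against 49.7, 29.6 and 33.1 FPKM. KO 7 lay inside the WT range and the other KO tumours below it, with a log2 change of -0.48 (95% interval -1.25 to 0.30, limma adjusted p = 0.986).

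The order of the members' levels differed between the tables. Ex vivo, Myc stood first and its range did not overlap that of Max, the next member, in either group. Max and Mxd4 overlapped, as did Mxd3 and Mlx, and Mnt, Mxd1 and Mxi1 followed at 11.3 FPKM or less. In the tumours the ranges of Max, Mxd1, Myc and Mxd4 overlapped in each genotype, except that Max, at 72.5 FPKM or more, lay above Mxd4, at 70.5 FPKM or less, in KO tumours. Mxd1 lay at 26.6 FPKM or more in all 6 tumours and at 6.64 FPKM or less in all 6 ex vivo samples.

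The share of Myc relative to its antagonists was set out as the log2 ratio of Myc to the summed FPKM of Mxd1, Mxd3, Mxd4, Mxi1 and Mnt. It was 0.80, 0.64 and -0.40 in AMD3100 samples (mean 0.35 ± 0.65), against 0.80, 0.94 and 0.25 in vehicle samples (mean 0.66 ± 0.37; SD, n = 3 each). Sample 3 was the lowest of both groups, and the groups overlapped. The difference in means was -0.32, and without AMD3100 3 it was 0.057. In the tumours it was -2.64, -0.73 and -0.61 in KO 5, 7 and 8 (mean -1.33 ± 1.14), against -1.87, -0.29 and -2.12 in WT 1, 2 and 4 (mean -1.43 ± 0.99). That difference in means was 0.10 and ran from -0.26 to 0.76 with 1 tumour left out at a time, -0.26 without KO 8, -0.25 without WT 4, -0.20 without KO 7, -0.12 without WT 1, 0.67 without WT 2 and 0.76 without KO 5. The antagonists together exceeded Myc in every tumour. Mxd1 made up 3.01% to 4.71% of the antagonists' FPKM ex vivo, and in the tumours 56.9%, 21.1% and 31.1% in KO 5, 7 and 8, against 14.3%, 31.1% and 60.2% in WT 1, 2 and 4. No test was made of this ratio, a score over chosen members.

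**Figure D4:**
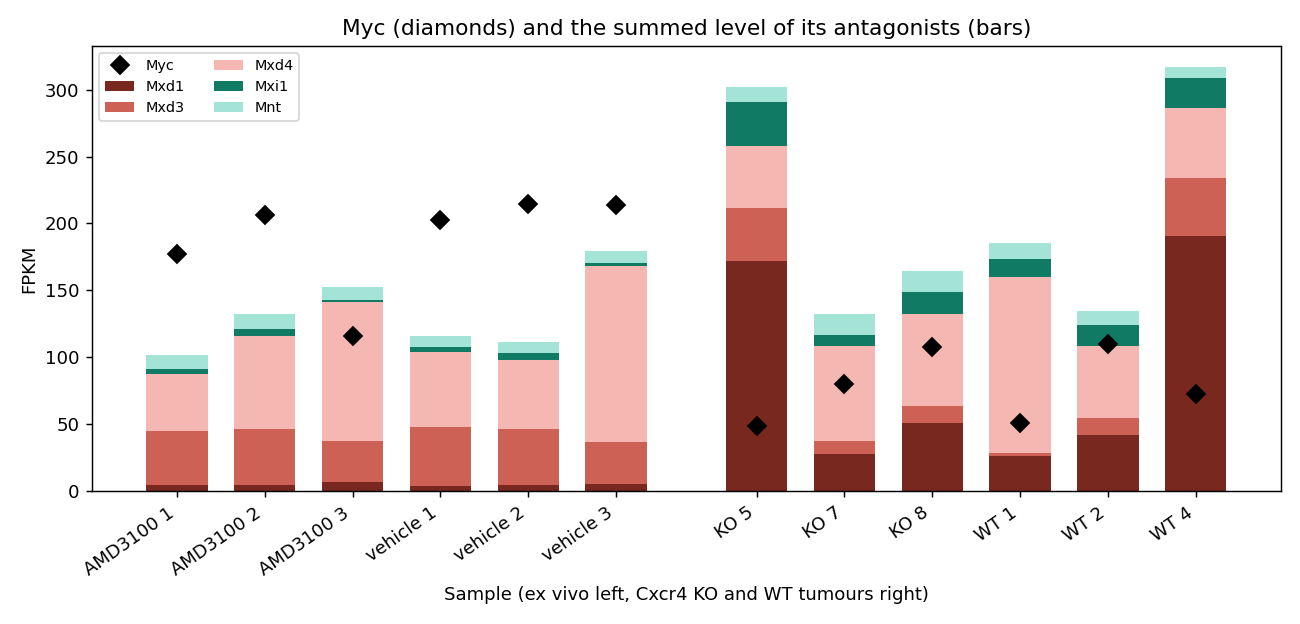
Stacked bars of the FPKM of Mxd1, Mxd3, Mxd4, Mxi1 and Mnt and, as black diamonds, of Myc in each sample. Myc lies above the stack in 5 of 6 ex vivo samples, all but AMD3100 3, and below it in all 6 tumours, where Mxd1 is the largest part of the stack in KO 5 and WT 4.

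Of 26 genes known to be induced by Myc, all tested, 9 fell and 1 rose with AMD3100 in the paired limma fit, where 9.92% of all genes tested fell and 9.96% rose; unpaired, 0 were called and 22 had a log2 change below 0. The median log2 change of the list was -0.23, against 0.00 over all genes. Without pair 1, or without pair 2, 0 of the list were called. The whole table then gave only 9 and 7 calls, so these fits say little of this list. Without pair 3, 5 of the list fell and 1 rose, where 623 of all 10245 genes tested fell and 584 rose. The list shares growth and nucleotide genes with proliferation programmes in general, and 5 of 8 proliferation genes fell in the same fit.

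Apex1, a DNA repair endonuclease, had 107, 104 and 58.1 FPKM in AMD3100 samples, against 179.9, 159 and 125 FPKM in vehicle samples (log2 -0.81, paired SE 0.108, paired limma adjusted p = 0.0198). Ldha, lactate dehydrogenase A, had 391, 384 and 334 FPKM, against 639, 576 and 722 FPKM (log2 -0.80, paired SE 0.122, paired limma adjusted p = 0.0221). In both genes every AMD3100 sample lay below every vehicle sample, as in 15.8% of all genes tested in that direction (13.1% in the other). Hspd1, a mitochondrial chaperonin, fell to 81.5 ± 9.44 FPKM in AMD3100 samples, against 108 ± 8.33 FPKM in vehicle samples (SD, n = 3 each; log2 -0.41, paired limma adjusted p = 0.0226). Pa2g4, which binds the receptor ErbB3, had 254, 255 and 207 FPKM in AMD3100 samples, against 358, 348 and 375 FPKM in vehicle samples (log2 -0.60, paired limma adjusted p = 0.0252). The other genes that fell in the paired fit were Nme1 (-0.56), Srm (-0.52), Gnl3 (-0.45), Eif4e (-0.33) and Cdk4 (-0.30). Ccnd2, cyclin D2, was the 1 that rose, with 54.1, 58.6 and 75.9 FPKM in AMD3100 samples, against 33.1, 39.3 and 27.7 FPKM in vehicle samples (log2 0.89, paired limma adjusted p = 0.0320). Odc1, ornithine decarboxylase, a classical direct target, had 46.2, 34.9 and 38.1 FPKM against 58.3, 55.9 and 42.2 FPKM and was not called (paired limma adjusted p = 0.0746).

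**Figure D5:**
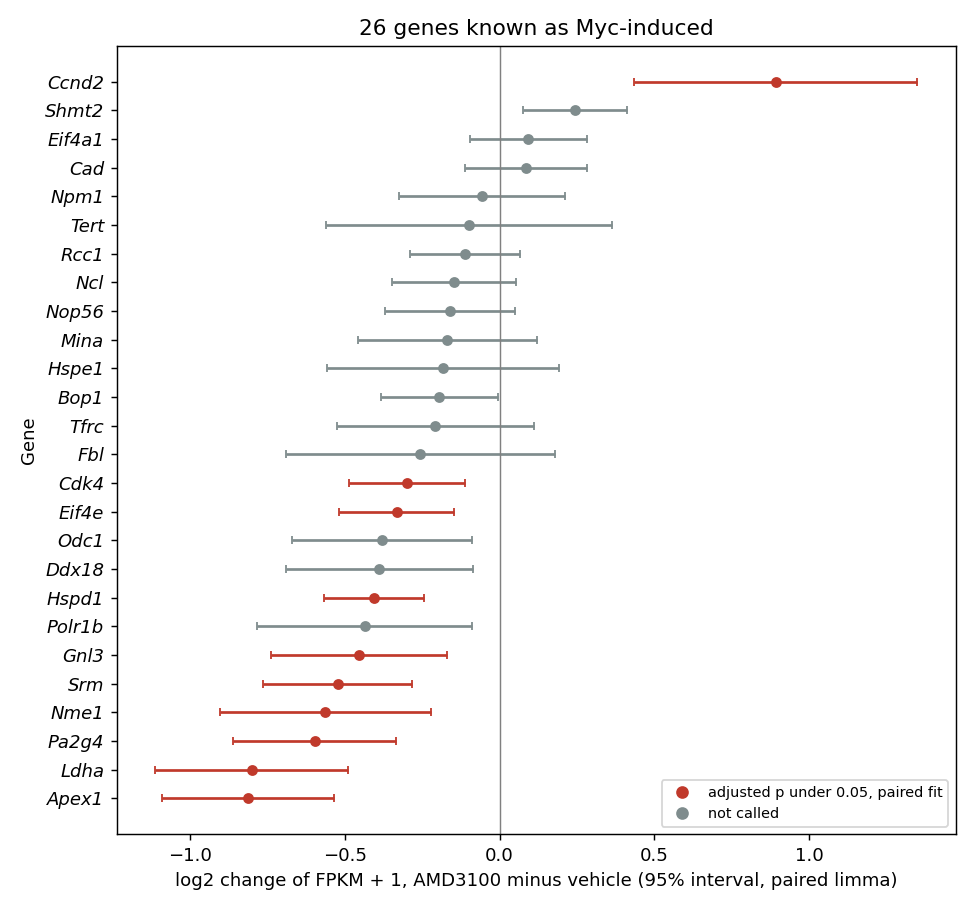
Log2 change of FPKM + 1, AMD3100 minus vehicle, of the 26 genes known as Myc-induced, with the 95% interval of the paired limma fit; red marks an adjusted p under 0.05 over all genes. Of the red genes 9 lie below 0, from Apex1 at -0.81 to Cdk4 at -0.30, and Ccnd2 lies above 0 at 0.89.

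Nuclear RNAs moved with the treatment too. Malat1, a nuclear long noncoding RNA, had 527, 579.8 and 920.5 FPKM in AMD3100 samples, against 178, 214 and 334 FPKM in vehicle samples (log2 1.48, paired limma adjusted p = 0.0138). The summed level of the 3 nuclear RNAs Malat1, Kcnq1ot1 and Neat1 was 541 to 946 FPKM with AMD3100 and 185 to 349.7 FPKM with vehicle, and all 3 rose in the paired fit, where 9.96% of all genes rose. Unpaired, and in the paired fit without pair 1 or without pair 2, 0 of the 3 were called. The whole table gave 13, 9 and 7 calls in these fits. The T cell markers summed to 2953 to 3618 FPKM with AMD3100 and 3086 to 3932 FPKM with vehicle. The part of nuclear RNA content or depth in the changes of Myc-induced genes was not tested.

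In the tumours 0 of the 26 Myc-induced genes were called, with a median log2 change of -0.14 against -0.03 over all genes. Ccnd2 had the smallest p of the list, with 90.6, 195 and 100.4 FPKM in KO 5, 7 and 8, against 60.5, 37.5 and 27.1 FPKM in WT 1, 2 and 4. Every KO tumour lay above every WT tumour, as in 4.01% of all genes tested in that direction (5.2% in the other). The log2 difference of 1.59 (SE 0.421, unadjusted p = 0.0065) had a limma adjusted p of 0.986. Pa2g4 averaged 87.3 ± 15.7 FPKM in KO tumours and 146 ± 43.7 FPKM in WT tumours, and Polr1b, a subunit of RNA polymerase I, 5.62 ± 2.18 against 10.9 ± 3.31 FPKM (SD, n = 3 each; limma adjusted p = 0.986 for both).

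A list of 10 genes held genes known to be repressed through Myc, often by way of Zbtb17 (Miz-1), and Zbtb17 itself. Of the 10, 9 were tested ex vivo and in the tumours, Zbtb17 among them. In the tumours or ex vivo, paired or unpaired, 0 were called, where 9.96% of all genes tested rose and 9.92% fell in the paired fit. Without pair 3, 1 rose and 1 fell, where 584 of all 10245 genes tested rose and 623 fell. Cdkn1a, the cyclin-dependent kinase inhibitor p21, had 40.5, 36.0 and 85.6 FPKM in AMD3100 samples, against 25.9, 21.1 and 18.1 FPKM in vehicle samples. The groups did not overlap, as in 13.1% of all genes tested in that direction (15.8% in the other). The log2 difference of 1.18 had a paired limma adjusted p of 0.0598. In the tumours Cdkn1a was 4.17, 1.87 and 4.14 FPKM in KO 5, 7 and 8, against 0.0566, 1.31 and 119.7 FPKM in WT 1, 2 and 4, a range set by WT 4 alone. Cdkn1b, the inhibitor p27, averaged 46.1 ± 2.12 FPKM in AMD3100 samples and 38.0 ± 5.79 FPKM in vehicle samples (SD, n = 3 each; paired limma adjusted p = 0.0841).

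Of 4 genes known as targets of Mlx partners 3 were tested ex vivo, and 1 fell and 1 rose in the paired fit, where 9.92% of all genes tested fell and 9.96% rose. Txnip, the main known target of Mlxip and an inhibitor of thioredoxin and of glucose uptake, had 8.69, 10.5 and 13.1 FPKM in AMD3100 samples, against 32.8, 21.2 and 47.8 FPKM in vehicle samples. Every AMD3100 sample lay below every vehicle sample, as in 15.8% of all genes tested in that direction (13.1% in the other). The log2 change of Txnip was -1.51 (paired SE 0.190, paired limma adjusted p = 0.0197, unpaired 0.0706). Hk2, hexokinase 2, had 15.7, 15.9 and 15.3 FPKM, against 10.2, 12.3 and 7.76 FPKM (log2 0.60, paired limma adjusted p = 0.0364). Without pair 1, 0 of the list were called, and without pair 2 or pair 3, 1 fell and 0 rose. Pfkfb3, a regulator of glycolysis, was not called (log2 0.24), and Arrdc4 averaged under 1 FPKM. In the tumours Txnip stood at 152, 269 and 146 FPKM in KO 5, 7 and 8, against 230.4, 124 and 70.8 FPKM in WT 1, 2 and 4, with a log2 change of 0.51 that was not called (limma adjusted p = 0.986).

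Cofactors of activation moved both ways ex vivo. Of 16 coactivators, all tested, 5 rose and 4 fell in the paired fit, with a median log2 change of 0.16. Over all genes tested, that fit had 9.96% rising and 9.92% falling, the background for both cofactor lists. Among those that rose were the acetyltransferases Ep300 (log2 0.70) and Crebbp (0.64), with Hcfc1 (0.31) and Ep400 (0.27). Crebbp had 42.6, 44.1 and 49.4 FPKM in AMD3100 samples, against 27.7, 30.8 and 28.0 FPKM in vehicle samples. Those that fell were the acetyltransferase Kat5 (log2 -0.50), the ATPases Ruvbl1 (-0.42) and Ruvbl2 (-0.36), and Paf1 (-0.38). Of 11 corepressors that Mxd proteins and Mnt recruit, 2 rose, among them Ncor1 (log2 0.36), and 2 fell, Suds3 (-0.47) and Rbbp4 (-0.24), while the scaffold Sin3a averaged 46.6 ± 3.72 FPKM in AMD3100 samples and 46.0 ± 1.79 FPKM in vehicle samples (SD, n = 3 each). Unpaired, 0 were called in either list, and without pair 1 or without pair 2 the paired fit called 0 as well. The whole table gave 13, 9 and 7 calls in these fits.

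Of 14 regulators of Myc protein stability 13 were tested, and 1 rose and 1 fell in the paired fit, near the shares of all genes tested (9.96% and 9.92%), so the count does not set the list apart. Gsk3b, the kinase that marks Myc for degradation, had 32.7, 33.8 and 39.0 FPKM in AMD3100 samples, against 19.9, 22.8 and 21.6 FPKM in vehicle samples (log2 0.69, paired limma adjusted p = 0.0197). Skp2, a ubiquitin ligase subunit that also acts as a Myc cofactor, had 24.2, 21.9 and 27.0 FPKM, against 42.7, 31.7 and 39.5 FPKM (log2 -0.61, paired limma adjusted p = 0.0199). In neither gene did the groups overlap, as in 13.1% of all genes tested with AMD3100 higher and 15.8% with AMD3100 lower. Without pair 1 or without pair 2 the paired fit called 0 of the list, where the whole table gave 9 and 7 calls. Fbxw7, the ubiquitin ligase subunit that reads the Gsk3b mark and is often mutated in T-ALL, averaged 18.5 ± 1.89 FPKM in AMD3100 samples and 15.7 ± 0.657 FPKM in vehicle samples (SD, n = 3 each; paired limma adjusted p = 0.115). The kinase Pim1 had a log2 difference of 0.71 (paired limma adjusted p = 0.0660). In the tumours 0 were called, and Pim2 had the smallest p of the list, at 31.5 ± 9.03 FPKM in KO tumours and 13.2 ± 5.17 FPKM in WT tumours (SD, n = 3 each; log2 1.22, limma adjusted p = 0.986).

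Of 6 genes of the Notch pathway, which drives Myc in T-ALL, 3 rose ex vivo in the paired fit and 0 fell: Notch3 (log2 0.74), Dtx1 (0.35) and Hes1 (0.32). Over all genes tested, 9.96% rose and 9.92% fell in that fit. Notch3 had 63.3, 99.3 and 58.0 FPKM in AMD3100 samples, against 39.7, 66.3 and 28.7 FPKM in vehicle samples, so each treated sample exceeded the vehicle sample of its number while the groups overlapped. Without pair 1 or pair 2, 0 were called, where the whole table gave 9 and 7 calls. Without pair 3, 1 was called, where 584 of all 10245 genes tested rose and 623 fell. In the tumours 0 of 6 were called. Notch3 was 1.54, 6.98 and 3.95 FPKM in KO 5, 7 and 8, against 59.8, 13.6 and 23.1 FPKM in WT 1, 2 and 4. The groups did not overlap, as in 5.2% of all genes tested in that direction (4.01% in the other). The log2 change of Notch3 was -2.58 (limma adjusted p = 0.986). Hes1, a direct Notch target, had 28.9, 10.4 and 3.54 FPKM in KO tumours against 30.6, 30.0 and 33.3 FPKM in WT tumours, KO 5 lying just below the WT values (log2 -1.48, limma adjusted p = 0.986). The Notch1 row averaged 73.7 ± 13.5 FPKM in KO tumours and 166 ± 87.7 FPKM in WT tumours (SD, n = 3 each, limma adjusted p = 0.986). All samples carried Notch1-deltaE, and whether its reads count toward that row is in no source used here.

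The cofactor lists gave 0 calls in the tumours, with median log2 changes of -0.12 for the coactivators and 0.01 for the corepressors, against -0.03 over all genes. Ruvbl1 had the smallest p among the coactivators, at 4.62, 6.72 and 1.42 FPKM in KO tumours (mean 4.25 ± 2.67) against a mean of 11.2 ± 0.654 FPKM in WT tumours (SD, n = 3 each; log2 -1.37, limma adjusted p = 0.986).

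The genes whose profile was most like that of Myc were found by the lower of 2 Pearson correlations with Myc, one over the 6 ex vivo samples and one over the 6 tumours, among the 7471 genes that averaged 5 FPKM or more in both tables. They were Wdr46 (0.90 ex vivo and 0.96 in the tumours), Timm9 (0.99 and 0.89), Rrp9 (0.87 and 0.95), Ndufa2 (0.87 and 0.83) and Adsl (0.83 and 0.90). Wdr46 and Rrp9 act in the nucleolus, Timm9 and Ndufa2 in mitochondria, and Adsl in purine synthesis. The samples of a table share its groups and, in the tumours, the differences in cell makeup, and the genes were picked as the highest of all, so these values are a description.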

How the data were processed

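The deposited values are FPKM per gene in 2 tables of 6 samples each, made by the authors from strand-specific (dUTP) poly-A libraries sequenced as single reads of 50 bases, per the labels' protocols. Tools were CASAVA and TopHat and the build mm9, per the submitters' processing notes; the program that made the FPKM values, its annotation, its treatment of reads shared between near-identical copies (as of Ldha, Npm1, Hspd1 and Fth1) and its use of strand are in no source used here. Since FPKM are no counts, the test was limma's two-sided moderated one on log2(FPKM + 1), run in R 4.3.3 with version 3.58.1 and a mean trend in eBayes. It was fitted to each table alone over the genes averaging 1 FPKM or more (10245 ex vivo, 10741 in tumours), adjusted by Benjamini-Hochberg, and a gene was called when the adjusted p was under 0.05. Fold changes on this scale understate the change of low genes. An exact permutation test of 3 against 3 cannot go below p = 0.1 and was not used. The fit was tested on simulated data.

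The ex vivo groups share replicate numbers. Deviations of same-numbered samples from their group means correlated at 0.467, 0.579 and 0.619 (other combinations -0.473 to 0.0455), all above 0.1, so a fit blocked on replicate number is given beside the unpaired one. The pairing comes from these values; what the number marks is not in the labels. The tumours share no numbers.

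The members and the 16 gene lists were chosen with earlier results of these data known, and so give no independent support. Named are all members, the 3 genes of each list with the smallest p in a comparison where described, and the 5 genes most like Myc; genes named beyond these were chosen after their values were seen. Some genes counted in the lists are not reported here by name. Alternatives were other pseudocounts (0.1, 0.5), filters, scalings and variance models, leaving out each sample, and the block.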

Additional observations from a re-analysis of the deposited data

How the results depend on the processing

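Across the alternatives run, 0 of 8 members were called in either comparison. Of the member values, 143 of 151 ex vivo and 108 of 128 in the tumours kept their direction. These counts include settings that cannot alter a log2 change: the other filters, no mean trend and the block alone. Their values kept direction by construction, so the counts overstate how steady the directions were. The lowest limma adjusted p was 0.0969 ex vivo and 0.633 in the tumours.

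The count of genes called over the whole table moved far more. Against 13 calls ex vivo, there were 8 with no filter, 188 at a mean of at least 5 FPKM (58 higher and 130 lower), 89 with median-of-ratios scaling (24 higher and 65 lower), 3 with quantile normalisation (2 higher and 1 lower) and 1 without the mean trend. The replicate block gave 2036, with median-of-ratios scaling 2029 and with quantile normalisation 1914; with pair 1 left out it gave 9, with pair 2 left out 7 and with pair 3 left out 1207, settings chosen after seeing the data. Pairing changed no call of a member. Leaving out 1 sample at a time gave 3 to 5 calls ex vivo and 0 to 4 in the tumours, with 0 when KO 7 or KO 8 was left out. Against 4 calls in the tumours, there were 0 with no filter and 0 when libraries were scaled to T cell markers. Fewer samples leave fewer degrees of freedom; otherwise the cause was not tested.

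Signs reversed for some members. Ex vivo, the log2 change of Mxd4 was 0.042 with pair 1 left out of the paired fit and 0.018 with pair 3 left out. With 1 sample left out at a time it ran from -0.41 to 0.32 for Mxd4, from -0.20 to 0.079 for Mxd3 and from -0.47 to 0.17 for Mxi1. In the tumours, leaving haemoglobin genes out of the total shifted the median of all genes to -0.14 and gave -0.11 for Myc, -0.058 for Mxd1 and -0.10 for Mxi1. Scaling to T cell markers shifted that median to -0.37 and gave -0.36 for Myc, -0.17 for Max, -0.30 for Mxd1 and -0.32 for Mxi1. With both erythroid-rich tumours left out, chosen after seeing the data, Mxi1 stood at -0.22. With 1 tumour left out at a time, Myc ran from -0.26 to 0.32, Mxd1 from -0.65 to 0.90, Mxd3 from -0.46 to 1.50, Mxd4 from -0.46 to 0.20 and Mxi1 from -0.43 to 0.47. Depth per sample is not given in the tables, so no counting interval could be had, and 3 samples a group limit what the tumour comparison can detect.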

Other observations

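Set against its partner alone, Myc was 2.45, 2.59 and 1.45 times Max in AMD3100 samples 1, 2 and 3, against 2.20, 2.73 and 2.49 times in vehicle samples 1, 2 and 3 (ratios of FPKM within a sample). In the tumours it was 0.669, 0.816 and 0.981 times Max in KO 5, 7 and 8, against 0.551, 1.42 and 1.00 times in WT 1, 2 and 4. AMD3100 3 was the lowest of the ex vivo samples and the other 5 lay close together. No test was made of this ratio.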
